A study of Mus musculus with 2 samples.

Results

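The nuclear genes of the mitochondrial respiratory chain and ATP synthase were examined by complex in bone marrow-derived myeloid-derived suppressor cells (MDSCs), myeloid cells grown from mouse marrow that restrain T cell responses. Members were the protein-coding genes whose symbols begin with Ndufa, Ndufb, Ndufc, Ndufs or Ndufv (complex I), are Sdha, Sdhb, Sdhc or Sdhd (complex II), begin with Uqcr (complex III), begin with Cox4 to Cox8 (complex IV) or begin with Atp5 (complex V). The patterns matched 94 of the 54751 genes in the count table, or 93 symbols, because Atp5o is listed under 2 identifiers. Complex I had 46 genes, complex II 4, complex III 8, complex IV 18 and complex V 18. The name pattern for complex I also took in 8 assembly factors, Ndufaf1 to Ndufaf8, which are not subunits of the finished complex, and Ndufa4, whose product is now placed in complex IV.

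There were 2 RNA-seq libraries, 1 per group, both from wild-type cells collected on day 6. The control library came from cells given vehicle and the other from cells given mrWNT2, the treatment name in the labels, in both cases on day 0 and on day 3. The libraries held 13474453 and 12621110 counts. With 1 library per group there is no measure of the variation between cultures and no test between the groups, so every difference below is between these 2 libraries. No label says whether a library came from 1 mouse or from pooled marrow. Levels are given as raw counts, as CPM, counts scaled to a library size adjusted by edgeR's TMM factor, and, where genes are compared with each other, as the authors' FPKM, which divides by gene length. FPKM ratios run lower than CPM ratios by a constant, since they follow DESeq2 size factors (a log2 shift of -0.03). Ratios are mrWNT2 over control on the CPM scale without a pseudocount. Each comes with an exact 95% Clopper-Pearson interval from its 2 counts, which covers counting error only. A gene was called measured where the mean of its CPM values was 1 or more, which 12856 genes reached.

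The chain works as a line of membrane enzymes. Complex I takes electrons from NADH and complex II takes them from succinate, as the one enzyme shared with the tricarboxylic acid cycle. Complex III passes them from ubiquinol to cytochrome c, and complex IV hands them to oxygen. Complexes I, III and IV pump protons, and complex V, the ATP synthase, lets them back through its c-ring to make ATP. All but complex II also hold subunits encoded in mitochondrial DNA, so nuclear and mitochondrial transcripts have to meet in 1 enzyme. Many nuclear subunit genes are known to be bound near their starts by NRF1, by the ETS factor GABP and by YY1. Mature neutrophils are known as glycolytic cells poor in mitochondria, and macrophages and monocytes as richer in them.

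The promoters were searched for the letters of those factors. RefSeq promoter sequences (GRCm38.p6, 250 bases before to 50 after the start) were matched by symbol for 74 of the 93 member symbols, with 79 promoters. Both strands were scanned for GCGCATGC (the NRF1 core, which reads GCATGCGC on the other strand), CCGGAAG (the ETS core, CTTCCGG) and AAGATGGCG (the YY1 core, CGCCATCTT). The NRF1 letters overlap themselves when both strands match at neighbouring positions. The NRF1 core stood in 15.2% of the members' promoters, against 2.71% of all 32851 promoters of that length and 5.31% of those of measured protein-coding genes. The ETS core stood in 22.8%, against 8.86% and 18.2%. The YY1 core stood in 10.1%, against 1.40% and 3.17%. At least 1 of the 3 was present in 39.2% of the members' promoters, against 24.6% for measured protein-coding genes, and 2 or more kinds in 8.86%, against 2.04%. By complex, YY1 matches were in 6 of 42 promoters of complex I and 2 of 16 of complex V, and in none of the 3 of complex II, 5 of complex III or 13 of complex IV.

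The stretches below, 120 bases before to 30 after the RefSeq start, are shown because they carry the dense matches: the first 5 hold 2 kinds of core, and Ndufaf4, the member with the highest ratio, holds the NRF1 core near both ends of the stretch. Each is written 5′ to 3′ along the gene, with the matched letters in capitals.
Sdhb (chr4:140961151-140961300, plus strand): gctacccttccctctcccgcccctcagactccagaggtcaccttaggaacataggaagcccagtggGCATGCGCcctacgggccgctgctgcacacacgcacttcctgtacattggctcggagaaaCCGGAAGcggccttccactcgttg
Uqcr11 (chr10:80406792-80406941, minus strand): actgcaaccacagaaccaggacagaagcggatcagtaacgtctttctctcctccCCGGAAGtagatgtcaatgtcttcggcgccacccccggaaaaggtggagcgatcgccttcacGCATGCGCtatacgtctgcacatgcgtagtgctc
Ndufaf8 (chr11:120098814-120098963, plus strand): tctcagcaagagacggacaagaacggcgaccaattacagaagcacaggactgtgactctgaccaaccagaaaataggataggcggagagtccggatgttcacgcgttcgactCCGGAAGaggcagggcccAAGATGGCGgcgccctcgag
Atp5k (chr5:108434370-108434519, minus strand): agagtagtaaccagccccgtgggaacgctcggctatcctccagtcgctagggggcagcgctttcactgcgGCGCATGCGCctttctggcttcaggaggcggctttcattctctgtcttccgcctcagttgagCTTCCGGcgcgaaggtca
Atp5j (chr16:84834947-84835096, minus strand): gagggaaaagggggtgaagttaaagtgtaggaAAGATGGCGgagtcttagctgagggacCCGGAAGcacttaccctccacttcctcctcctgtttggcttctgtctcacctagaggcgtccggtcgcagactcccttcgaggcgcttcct
Ndufaf4 (chr4:24897963-24898112, plus strand): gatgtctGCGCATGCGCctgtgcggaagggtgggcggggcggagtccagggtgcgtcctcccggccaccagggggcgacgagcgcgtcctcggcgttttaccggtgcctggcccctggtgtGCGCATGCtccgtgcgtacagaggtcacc
A match is a description of the letters and not a site in use. The members' ratios lay close together with and without these letters. The median log2 ratio was 0.19 for the 12 measured members with the NRF1 core and 0.21 for the 60 without. It was 0.17 for the 18 with the ETS core and 0.21 for the 54 without, and 0.18 for the 8 with the YY1 core and 0.20 for the 64 without. Atp5j has a second RefSeq promoter, with none of the 3 cores. Atp5j and Gabpa, which encodes the DNA-binding subunit of GABP, overlap in the annotation. Their ratios were 1.04 and 1.12.

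Of the 94 member genes, 87 were measured. The 7 that were not were Ndufa4l2, 5 tissue-restricted Cox genes and the second listing of Atp5o. The measured genes were mostly slightly higher in the mrWNT2 library in every complex. The median log2 ratio was 0.20, a 1.15-fold difference, against 0.02 for all measured genes. A ratio above 1 was found in 69 of the 87, where 52.3% of all measured genes had one. At least 1.2-fold higher were 26 members, or 29.9%, beside a background of 21.0% of all measured genes. That comparison depends on the scaling: with upper-quartile scaling 13 members, or 14.9%, reached this size beside 17.2% of all measured genes, and with DESeq2 size factors 20 of 87 did, beside 18.4%. At least 1.2-fold lower was 1, Ndufb2, beside a background of 18.4%. No member was at least 1.5-fold higher (background 7.62%), and the same Ndufb2 was the only one at least 1.5-fold lower (background 7.02%). The members thus differed in a narrow band, and mainly on 1 side of it.

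The counting interval lay above a ratio of 1 for 45 of the 87 measured members, beside 21.0% of all measured genes, and below 1 for none, beside 18.8%. Abundant genes have narrow intervals, so the counts were also taken at a higher level. Among the 77 members whose mean reached 10 CPM, 44 had an interval above 1 and none below, while 25.0% and 22.7% of all 8543 genes at that level did. At the same level, 63 of 77 members had a ratio above 1 (background 52.9%) and 21 were at least 1.2-fold higher (background 15.6%). Summed over all members, the level was 5271 CPM in the control library and 6051 CPM in the mrWNT2 library, 1.15-fold higher (interval 1.14 to 1.16). Interval counts here and below were taken with TMM scaling only and depend on it. Upper-quartile scaling shifts every log2 ratio by -0.05. Intervals that began close above 1 would then hold 1, such as those of Ndufb8 (from 1.004) and Ndufab1 (from 1.009).

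**Figure D1:**
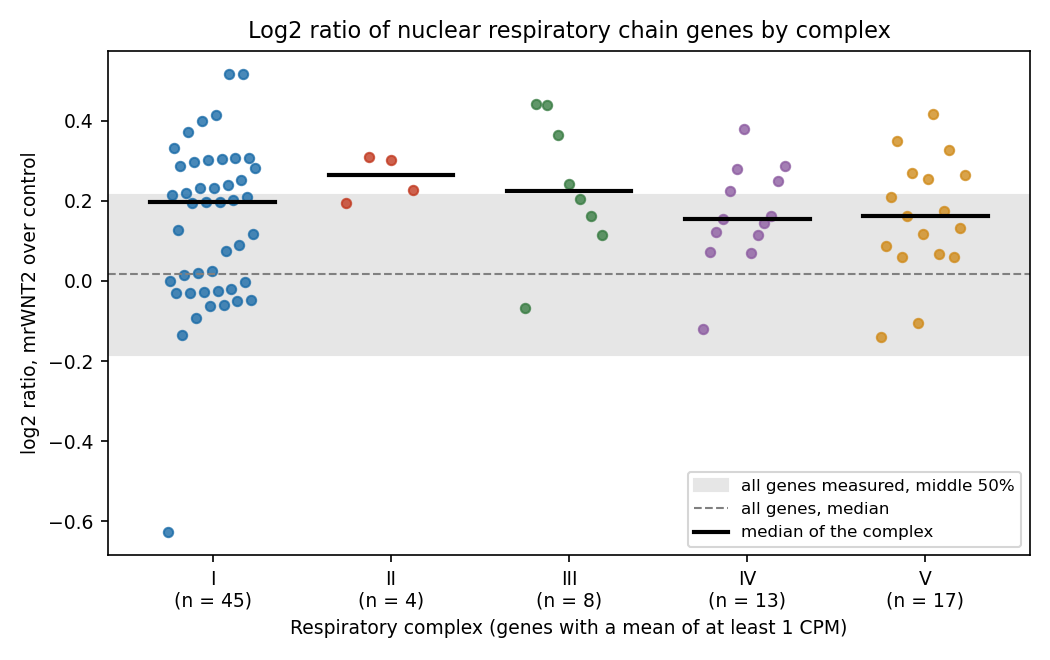
Log2 ratio of each measured nuclear respiratory chain gene, mrWNT2 over control, by complex (x axis, with the number of genes). Points are genes, black bars the medians of the complexes (0.15 to 0.27), the dashed line the median of all measured genes (0.02) and the grey band their quartiles (-0.19 to 0.22). All 5 medians lie above the dashed line and close to each other.

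The complexes differed little from each other. The median log2 ratio was 0.27 in complex II, 0.22 in complex III, 0.20 in complex I, 0.16 in complex V and 0.15 in complex IV, so the highest and the lowest were 0.11 apart. Within complex I alone the quartiles were -0.02 and 0.29, a wider span than that between the complexes. A ratio above 1 was found in 31 of 45 measured genes of complex I, 4 of 4 of complex II, 7 of 8 of complex III, 12 of 13 of complex IV and 15 of 17 of complex V. Genes at least 1.2-fold higher numbered 13, 2, 3, 3 and 5 in the same order, beside a background of 21.0% of all measured genes. These were 28.9% of the measured genes of complex I, 37.5% of complex III, 23.1% of complex IV and 29.4% of complex V. In complex II they were 2 of 4. The share of complex IV lay close to the background. Without the 8 assembly factors and Ndufa4, complex I had 7 of 36, or 19.4%, below the background. Intervals above 1 numbered 19, 4, 5, 8 and 9, beside 21.0% of all measured genes. Complex I was thus the one with the largest share of members at or under a ratio of 1, and complex II the one with none.

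Summed counts gave another order because abundant genes weigh more in them. Complex II was 1.21-fold higher (1.17 to 1.26), complex III 1.18-fold (1.15 to 1.22), complex V 1.17-fold (1.15 to 1.19), complex IV 1.12-fold (1.10 to 1.15) and complex I 1.10-fold (1.07 to 1.12). The intervals of complexes II, III and V overlapped, and those of complexes I and IV overlapped. Those of complexes III and IV met at their ends. Complex I ranked in the middle by its median and last by its sum. Its place by the median rests on the set taken: without the members that overlap another gene in the annotation its median was 0.10, below those of the other complexes (0.14 to 0.23). Without the 8 assembly factors and Ndufa4, the median of its 36 structural subunits was 0.12, again below the medians of the other complexes (0.15 to 0.27).

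Complex I was divided by the role and place of its subunits. Taken whole, the 16 genes of the matrix arm had a median log2 ratio of 0.11, and the accessory subunits of the membrane arm 0.16. The core subunits of the matrix arm carry the flavin and the iron-sulfur clusters that take electrons from NADH. All 7 were measured, with a median log2 ratio of 0.23, and 5 had intervals above 1. Ndufv1, which binds the flavin and NADH, had 519 counts in control and 651 in mrWNT2, or 38.8 and 51.2 CPM, 1.32-fold higher (1.17 to 1.48), the highest of any structural subunit of the complex. Ndufs1, the largest iron-sulfur subunit, had 68.0 and 83.6 CPM (1.23-fold, 1.12 to 1.34). Ndufs7, which carries the last cluster of the chain, went the other way at 27.8 and 26.7 CPM, with an interval that held 1 (0.825 to 1.11). Ndufs8 also had an interval that held 1 (1.06, 0.929 to 1.22). The core was therefore higher beyond counting error in 5 of 7 members, beside 21.0% of all measured genes.

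The accessory subunits of the same arm were level. Their median log2 ratio was -0.02 over 9 genes, and 2 had an interval above 1, beside 21.0% of all measured genes. These were Ndufa9 (1.19-fold, 1.05 to 1.35) and Ndufa6 (1.15-fold, 1.01 to 1.30). Ndufa7 was the lowest of the 9 at 41.1 and 38.5 CPM (0.939, 0.829 to 1.06). Summed counts were 1.18-fold higher for the core (1.13 to 1.22) and 1.04-fold for these accessory subunits (0.993 to 1.08), intervals that did not overlap. The core and its accessory subunits thus differed in the same arm of the same enzyme in this pair of libraries. Their median coding lengths differed too, at 789 bases (core) and 393 bases (accessory). In complex I the median log2 ratio was 0.24 for the 14 measured genes of at least 600 coding bases and 0.12 for the 31 shorter ones. Over all measured genes with a coding length these medians were 0.02 and 0.07. The part of length in the difference was not tested.

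The 20 measured accessory subunits of the membrane arm had a median of 0.16. Intervals lay above 1 for 10 of them, beside 21.0% of all measured genes, several with lower ends close to 1. Ndufb6 had 143 and 176 counts (1.29-fold, 1.03 to 1.63) and Ndufc2 254 and 304 (1.26-fold, 1.06 to 1.49). Ndufb11, on the X chromosome, had 740 and 641 counts (0.911, 0.818 to 1.01). Ndufa1, also on the X chromosome, had the highest level per length of the complex, 69.9 FPKM in control and 66.0 in mrWNT2, and a ratio of 0.967. The neighbours in the order between these ends differed by less than their intervals.

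Ndufb2 stood apart in level as well as in ratio. It is a subunit of the membrane arm, yet it was listed at 0.524 FPKM in control and 0.331 in mrWNT2, the lowest of complex I, from 39 and 24 counts. Its ratio was 0.647, or 1.55-fold lower in mrWNT2, with an interval that held 1 (0.372 to 1.10). The gene (chr6:39592574-39603382, plus strand, GRCm38) shares its span with Braf, Gm16272 and Gm42420 in the annotation. No label or file header says how reads in shared spans were counted, and their part in its low count was not tested.

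The assembly factors were the group with the highest median, 0.31 over 8 genes, at low levels of 0.915 to 7.11 FPKM in control. They build complex I and leave it. Of the 8, 6 were at least 1.2-fold higher and 2 had an interval above 1, each beside 21.0% of all measured genes. Ndufaf3 (1.22-fold), Ndufaf5 and Ndufaf6 (both 1.24-fold) lay close above 1.2, with intervals that held 1. Ndufaf4 had 83 and 113 counts (1.43-fold, 1.07 to 1.92), and Ndufaf7, a methyltransferase, had 206 and 261 (1.33-fold, 1.11 to 1.61). Ndufaf2 matched the size with fewer counts, 36 and 49, and an interval that held 1 (1.43-fold, 0.912 to 2.27). Ndufaf1 was level at 141 and 134 counts (0.999, 0.783 to 1.28). Summed, the 8 factors were 1.24-fold higher (1.12 to 1.37).

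**Figure D2:**
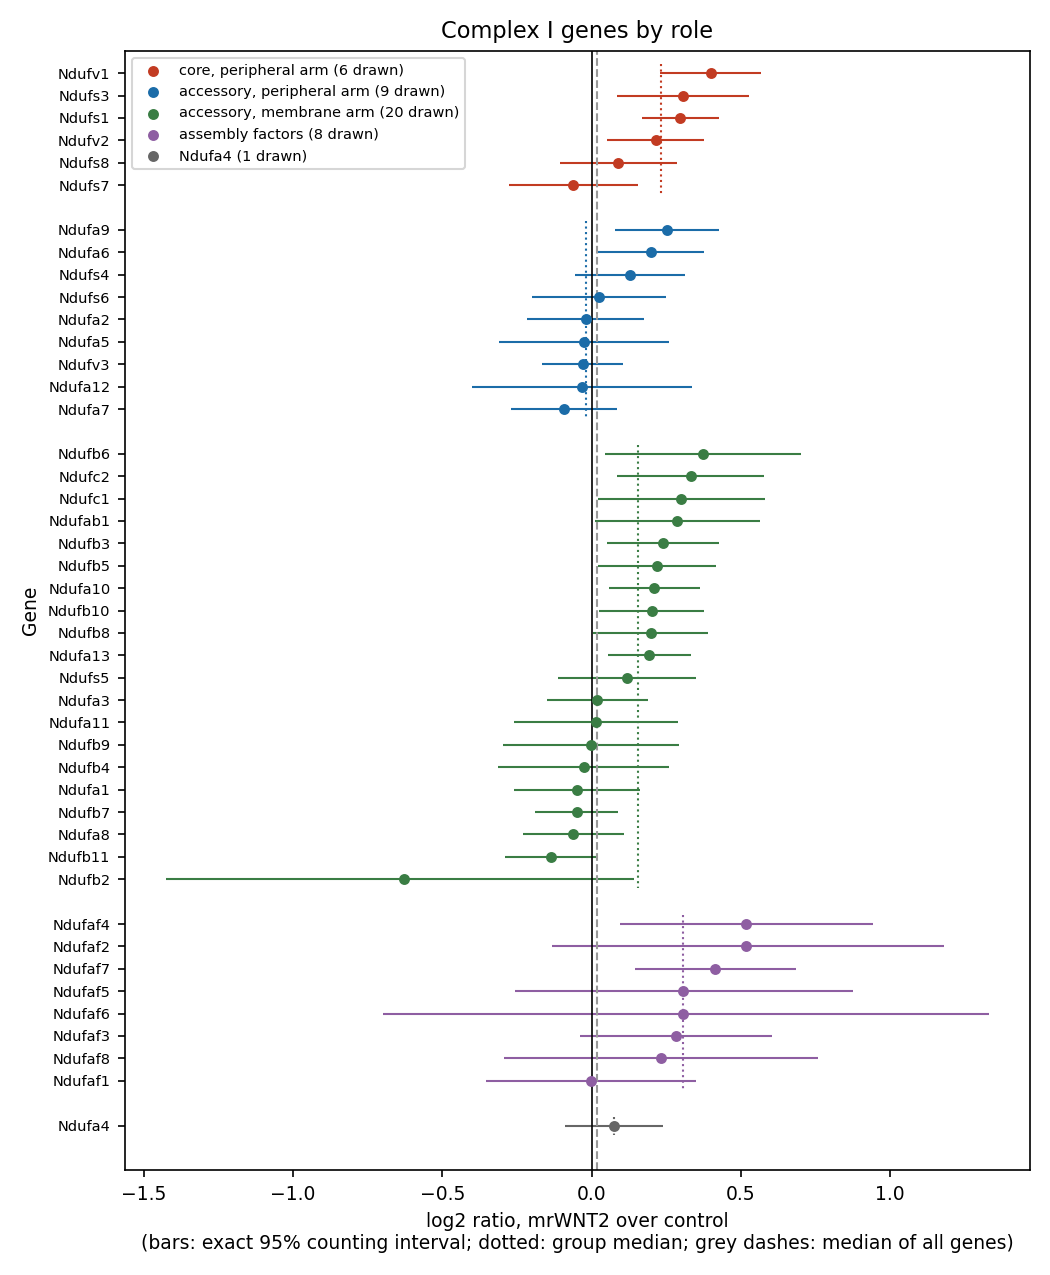
Log2 ratio, mrWNT2 over control (x axis), of 44 of the 45 measured genes of the complex I name pattern (y axis; 1 core gene is not drawn but counts in its group's median), grouped by role, with exact 95% counting intervals as bars and group medians as dotted lines. The accessory subunits of the matrix (peripheral) arm have a median of -0.02, against 0.23 for the core and 0.16 for the membrane arm, and the assembly factors have wide intervals around 0.31.

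Ndufa4 and its relatives were described apart. Ndufa4 had 608 and 609 counts, or 33.3 and 34.3 FPKM, with a ratio of 1.05 (0.940 to 1.18). AA467197, the mouse counterpart of C15ORF48, a paralog reported to replace NDUFA4 in complex IV of inflamed cells, is not named by the pattern. It had 1199 and 1025 counts, or 75.4 and 66.2 FPKM, with a ratio of 0.899 (0.826 to 0.978). Its level per length was thus above that of Ndufa4 in both libraries, and its share of their summed counts was 66.4% (exact interval 64.1 to 68.5) in control and 62.7% (60.3 to 65.1) in mrWNT2. Ndufa4l2, a hypoxia-induced relative, had no count in either library.

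Complex II was higher throughout. Sdha, the flavoprotein that oxidises succinate, had 2115 counts in control and 2481 in mrWNT2, or 158 and 195 CPM (1.23-fold, 1.16 to 1.31). Sdhb, the iron-sulfur subunit, had 59.4 and 68.1 CPM (1.15-fold, 1.04 to 1.26). The membrane anchors Sdhc and Sdhd had 57.2 and 67.0 CPM (1.17-fold, 1.06 to 1.29) and 109 and 135 CPM (1.24-fold, 1.16 to 1.33). All 4 intervals lay above 1 and all overlapped, so the subunits were not told apart in ratio. Per length they were not equal: Sdhd was highest at 89.3 FPKM in control and Sdhc lowest at 17.8 FPKM.

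In complex III the 3 highest members were spread over its parts. Uqcr10, a small subunit, had 557 and 719 counts, or 41.7 and 56.5 CPM (1.36-fold, 1.21 to 1.52). Uqcrfs1, the Rieske iron-sulfur protein that hands electrons to cytochrome c1, had 795 and 1025 counts, or 59.4 and 80.6 CPM (1.36-fold, 1.23 to 1.49). Uqcrc2, a core protein of the matrix side, had 84.9 and 109 CPM (1.29-fold, 1.19 to 1.39). Its partner Uqcrc1 had a smaller ratio of 1.12 (1.04 to 1.21), and the 2 intervals overlapped at their ends. Uqcrq had a ratio of 1.08 with an interval that held 1 (0.959 to 1.22). Uqcrb was the 1 member lower in mrWNT2, with 849 and 770 counts and a ratio of 0.954 (0.864 to 1.05). It had the highest FPKM of the complex in control, 73.3, against 21.7 for Uqcrq. Uqcrb has 3 near-identical pseudogenes, and counted together with them its ratio was 0.940 (0.855 to 1.03).

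The 10 ubiquitous subunits of complex IV, which surround the mitochondrially encoded core, all had ratios above 1, from 1.05 to 1.30, and 7 had intervals above 1. Among all measured genes, 52.3% had a ratio above 1 and 21.0% such an interval. The intervals of Cox6a1 (from 1.01) and Cox6b1 (from 1.02) began close above 1. Cox7b, on the X chromosome, led with 949 and 1175 counts, or 71.0 and 92.4 CPM (1.30-fold, 1.19 to 1.42). Cox7a2 followed with 61.0 and 74.5 CPM (1.22-fold, 1.11 to 1.34). Cox5b (1.05, 0.956 to 1.15) and Cox8a (1.05, 0.984 to 1.12) were level within counting error. Cox8a had the highest FPKM of any member, 248 in control and 255 in mrWNT2. Cox7a2l, which joins complex III to complex IV in supercomplexes, had 1273 and 1354 counts (1.12-fold, 1.04 to 1.21).

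The tissue-restricted forms of complex IV subunits were almost silent. Cox7b2 and Cox8c had no count in either library, Cox8b had 1 in control, Cox4i2 had 3 and 1, and Cox6a2, the heart and muscle form, had 0 in control and 4 in mrWNT2. Cox6b2, the testis form, had 13 and 15 counts and Cox7a1, the heart and muscle form, 16 and 14, with intervals that held 1 (0.539 to 2.77 and 0.416 to 2.01). Of all Cox7a1 and Cox7a2 counts, Cox7a1 made up 1.92% (exact interval 1.10 to 3.10) in control and 1.46% (0.799 to 2.43) in mrWNT2. Of Cox4 counts, Cox4i2 made up 0.143% and 0.0450%. At these depths a gene without counts could still have a CPM of 0.224 (control) or 0.236 (mrWNT2). Both libraries thus held the ubiquitous set, with no change of form that could be detected at this depth.

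**Figure D3:**
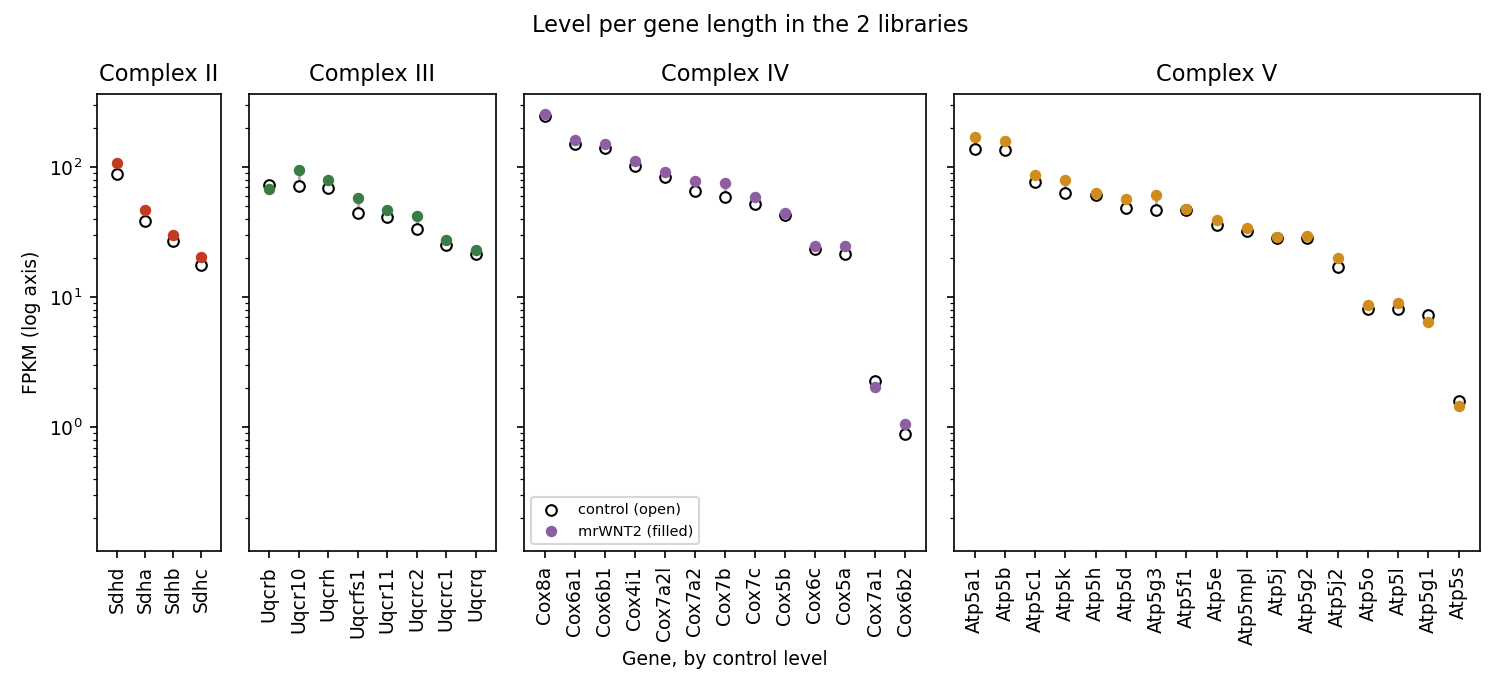
Level per gene length (FPKM, log axis) of the measured genes of complexes II to V in control (open) and mrWNT2 (filled), ordered by the control level. Within complex IV, levels run from 248 FPKM for Cox8a to 0.888 FPKM for Cox6b2, a far wider range than the gap between the 2 libraries for any gene.

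The ATP synthase split by part. The F1 head, where ATP is made, counted with its central stalk, was higher in all 5 subunits, each with an interval above 1. Such an interval was found in 21.0% of all measured genes. Atp5a1, the alpha subunit, had 5716 and 6823 counts, or 427 and 537 CPM (1.26-fold, 1.21 to 1.30). Atp5b, the catalytic beta subunit, had 568 and 684 CPM (1.2-fold, 1.17 to 1.24). Together with Atp5c1, Atp5d and Atp5e the head summed to 1.21-fold (1.19 to 1.24). The peripheral stalk, which keeps the head from turning, was nearly level: its 4 measured genes, Atp5f1, Atp5h, Atp5j and Atp5o, had ratios of 1.04 to 1.10, none with an interval above 1, and a sum of 1.05 (1.01 to 1.09). The intervals of the 2 sums did not overlap. Of the stalk genes, Atp5f1, Atp5h and Atp5o have near-identical pseudogenes, and counted with them their ratios were 1.04, 1.03 and 1.07.

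The c-ring is the rotor through which protons pass, and its subunit is encoded by 3 genes whose mature protein is the same. Atp5g3 had 1362 and 1728 counts, or 102 and 136 CPM (1.33-fold, 1.24 to 1.43), the highest ratio of complex V. Atp5g2 had 627 and 633 counts (1.06, 0.949 to 1.19) and Atp5g1 had 476 and 411 (0.908, 0.794 to 1.04). Atp5g3 therefore made up 55.3% of the counts of the 3 genes in control (exact interval 53.3 to 57.2) and 62.3% in mrWNT2 (60.5 to 64.1), and Atp5g1 19.3% and 14.8%. The low ratio of Atp5g1 is uncertain. Its processed pseudogene Gm10039, 99.8% identical over 411 bases, had 168 counts in control and 305 in mrWNT2, and their summed counts were 644 and 716, a ratio of 1.17 (1.05 to 1.30). The direction for Atp5g1 thus turned with the copy included.

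Among the accessory subunits of the membrane part, Atp5k had 520 and 630 counts (1.27-fold, 1.13 to 1.43), and Atp5j2 had 747 and 847 (1.19-fold, 1.08 to 1.32). Atp5l had a ratio of 1.13 and Atp5mpl of 1.08, the latter with an interval that held 1 (0.959 to 1.23). Atp5j of the stalk had the third lowest ratio of the complex, 1.04 (0.960 to 1.13). Atp5s, taken in by the name pattern but grouped apart from the subunits, was its scarcest measured gene at 1.60 FPKM in control. Its counts were 43 and 38 (0.929, 0.585 to 1.47). Per length, Atp5a1 was the highest of complex V at 138 FPKM.

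**Figure D4:**
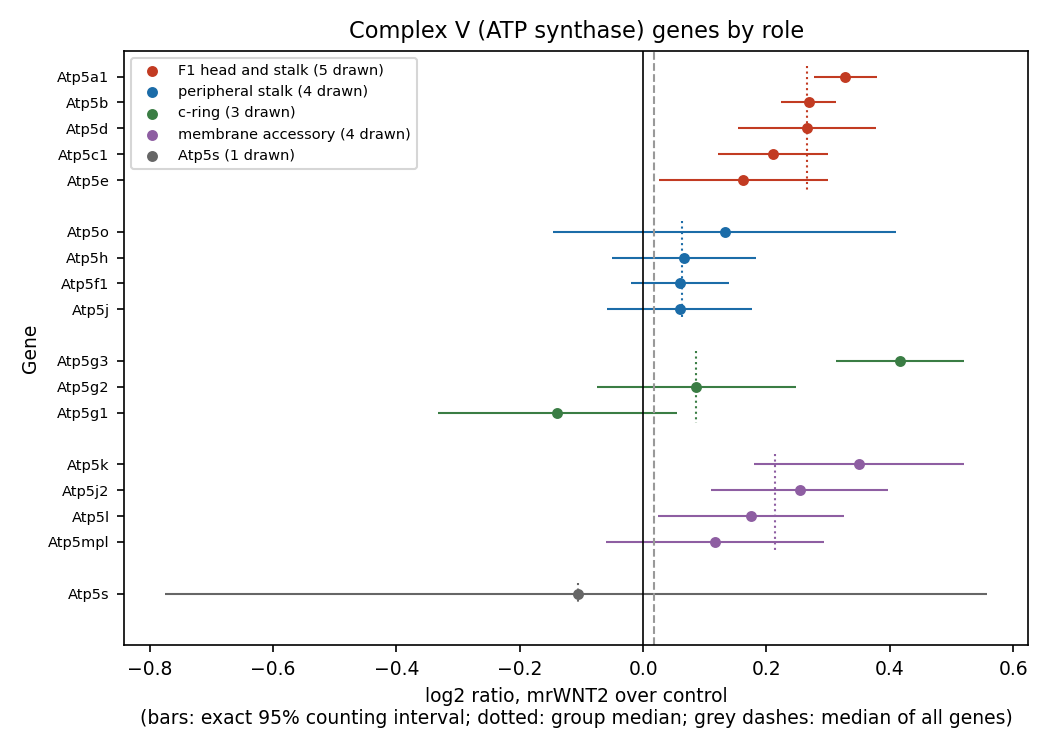
Log2 ratio, mrWNT2 over control (x axis), of the 17 measured genes of complex V (y axis), grouped by part, with exact 95% counting intervals as bars and group medians as dotted lines. The F1 head has a median of 0.27 and the peripheral stalk one of 0.06, and the 3 c-ring genes run from -0.14 to 0.42.

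The subunits encoded in mitochondrial DNA did not move as 1 block. Of 13 genes, 12 were measured, with a median log2 ratio of 0.12, and their summed counts were 1.02-fold higher (1.02 to 1.03), where the nuclear members were 1.15-fold higher. The direction of that mitochondrial sum turns under DESeq2 size factors or upper-quartile scaling, which shift every log2 ratio by -0.03 and -0.05. Of the 12, 6 had intervals above 1 and 1 below, beside 21.0% and 18.8% of all measured genes. mt-Co1, the catalytic subunit of complex IV, had 14284 and 14240 CPM (0.997, 0.991 to 1.003). mt-Nd2 of complex I had 1049 and 1293 CPM (1.23-fold, 1.2 to 1.26). The ends of the list were scarce: mt-Nd3 had 11 and 15 counts (1.43, 0.615 to 3.45) and mt-Nd4l 38 and 33 (0.913, 0.555 to 1.5). mt-Co1, mt-Co2, mt-Co3, mt-Atp6, mt-Nd3, mt-Nd4 and mt-Nd4l have near-identical nuclear copies, so their counts are uncertain.

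The mobile carrier between complexes III and IV was higher as well. Cycs, cytochrome c, had 609 and 783 counts (1.35-fold, 1.21 to 1.51), and Cyc1, the cytochrome c1 of complex III whose symbol falls outside the pattern, had 1013 and 1135 (1.18-fold, 1.08 to 1.28).

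Few assembly factors outside the name pattern had intervals that left 1 out. Of all measured genes, 21.0% had an interval above 1, 18.8% one below 1, and 52.3% a ratio above 1. Several of these factors had low counts and so wide intervals. All 6 for complex III had ratios above 1 (median 0.33), from Uqcc3 at 1.13 to Ttc19 at 1.60 (147 and 224 counts, 1.30 to 1.99), and 2 had intervals above 1. For complex I, 8 of 9 were above 1 (median 0.23), from Acad9 at 0.9996 to Nubpl, which delivers iron-sulfur clusters, at 3.24 (24 and 74 counts, 2.02 to 5.37), and 3 had intervals above 1. For complex II, 3 of 4 were above 1, with Sdhaf1 highest (16 and 28 counts, 1.84, 0.962 to 3.64) and Sdhaf2 lowest (0.917, 0.818 to 1.03). No interval of those 4 left 1 out, and their summed counts, mostly from Sdhaf2, had a ratio of 0.959 (0.860 to 1.07). For complex IV the list was level, with 11 of 19 above 1, a median of 0.04 and no interval that left 1 out. It ran from Cox16 (36 and 27 counts, 0.789) to Cox11 (24 and 38 counts, 1.67). The 3 factors for complex V had ratios of 0.998 (Atpaf1) to 1.06 (Tmem242).

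Regulators of mitochondrial biogenesis had mixed ratios, with 7 of 13 measured above 1 and a median of 0.06. Ppargc1b, the coactivator PGC-1 beta, was the highest with 23 and 76 counts (3.47-fold, 2.16 to 5.81). Nrf1 was the lowest with 604 and 471 counts (0.820, 0.725 to 0.927). Between them, and outside the naming rule, Tfb1m had 25 and 58 counts (2.44-fold, 1.5 to 4.07), Lrpprc, which stabilises mitochondrial mRNA, 467 and 649 (1.46-fold, 1.30 to 1.65), and Tfam 258 and 256 (1.04, 0.874 to 1.25). Ppargc1a had 0 and 1 counts.

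Markers of cell types differed between the libraries too. All 10 neutrophil genes were lower in mrWNT2, with intervals below 1 and summed levels of 76215 CPM in control and 60404 CPM in mrWNT2. They included S100a9, the most abundant at 25349 and 22000 CPM, and Ly6g, which defines granulocytic MDSCs in the mouse, at 173 and 86.3 CPM. Of 10 macrophage genes, 8 were at least 1.5-fold lower and 2, Adgre1 and Marco, at least 1.5-fold higher, with sums of 2693 and 1801 CPM. Of 5 measured monocyte genes, 3 were at least 1.5-fold higher and 2 lower, with sums of 1440 and 2043 CPM. Of that list, Cx3cr1 had 0 and 3 counts. None of 8 T and NK cell genes and none of 6 erythroid genes was measured, and 2 of 6 B cell genes and 2 of 6 dendritic cell genes were. Of 5 measured stromal and endothelial genes, Col1a1 (12.7 and 4.88 CPM), Col1a2 (4.94 and 1.18 CPM) and Sparc (3.14 and 1.02 CPM) were at least 1.5-fold lower, while Pecam1 (41.6 and 47.9 CPM) made up most of the list's sum of 63.7 and 56.1 CPM. In sum, 5 eosinophil genes were at 1369 and 1418 CPM, and 5 basophil and mast cell genes at 222 and 185 CPM. Of 10 cell cycle genes, 9 had intervals above 1, beside 21.0% of all measured genes. Their median log2 ratio was 0.18, near the members' median of 0.20. In bulk RNA, fewer cells of a type and less RNA per cell cannot be told apart, and the part of these marker and cell cycle differences in the members' ratios was not tested.

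**Figure D5:**
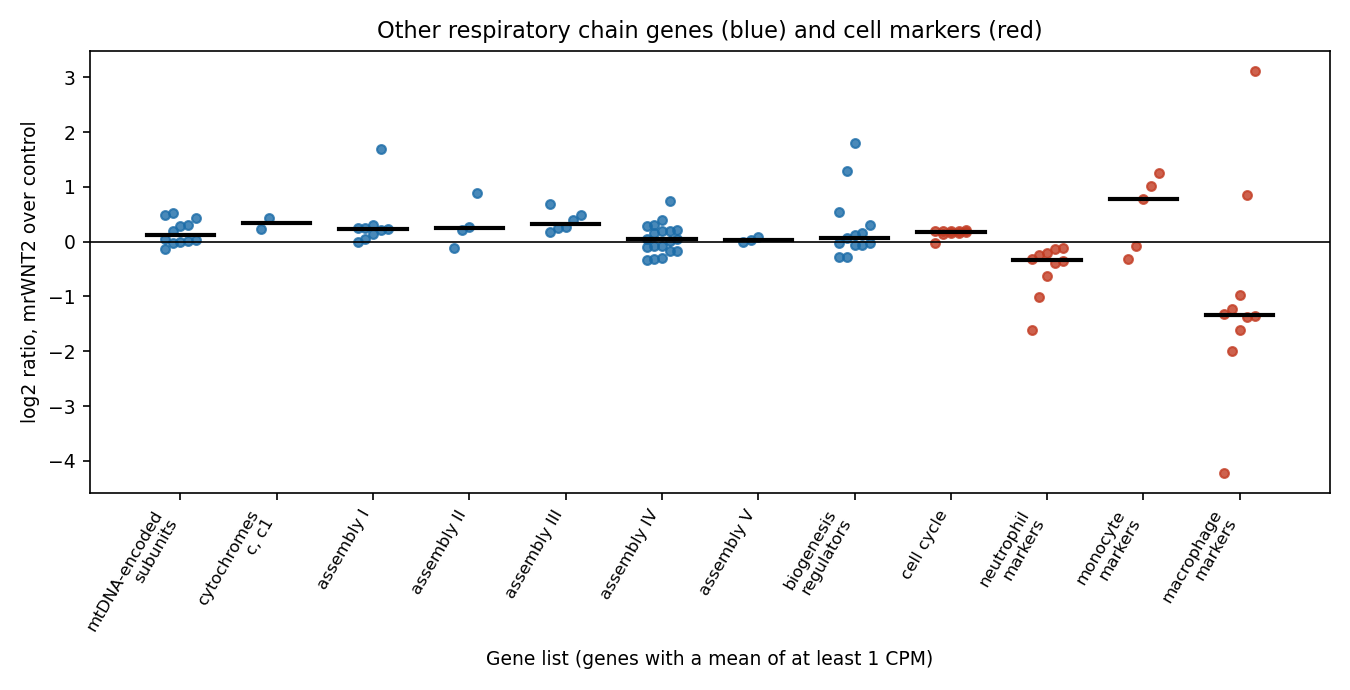
Log2 ratio, mrWNT2 over control (y axis), of measured genes in other respiratory chain lists (blue) and in cell cycle and cell type lists (red), with black bars at list medians. The assembly lists for complexes I to III have medians of 0.23 to 0.33 and those for complexes IV and V lie at 0.04, while the neutrophil and macrophage lists lie at -0.34 and -1.34.

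Near-identical copies weighed on some members. With at least 97% identity over at least 150 bases, 16 of the 87 measured members had an annotated copy elsewhere, most of them processed pseudogenes. Their median log2 ratio was 0.10, against 0.21 for the 71 without a copy. In complex V the 11 genes without a copy had a median of 0.25, and in complex III the 6 without had 0.30. The order of the complexes thus changed. Without such members complex III stood above complex II (0.27) and complex V above complex I (0.20). The highest and the lowest median were then 0.15 apart. Counting members and copies together turned the direction for Ndufa12, from 0.979 to 1.06 (0.894 to 1.26), and for Atp5g1. In the annotation 37 of the measured members share part of their span with another gene.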

How the data were processed

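Total RNA was made into libraries with a NEBNext Ultra kit, per the labels' protocols, and the submitters' processing notes name fastp, HISAT2 2.0.5, featureCounts 1.5.0-p3, DESeq2 1.20.0 and the build GRCm38 (mm10). The authors deposited raw read counts for each gene and, in a further table, FPKM values, which scale counts by gene length and library. Strand and multi-mapped read settings are not given in the sources used here. FPKM ratios matched ratios of counts scaled by DESeq2 size factors, and not by library totals, to 3.5e-08 on the log2 scale over 10387 genes.

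Counts were scaled by TMM factors of 0.992 and 1.01 (edgeR 4.0.16, R 4.3.3). Ratios carry no pseudocount, a count of 0 was replaced by 3 counts (0.224 and 0.236 CPM), and no ratio was formed where 0 stood against 3 or fewer. Intervals came from scipy 1.17.1, and the ratio script was tested on simulated data. Copies were found with BLAST 2.17.0 in GENCODE vM21 transcripts. Folds of 1.2 and 1.5 are sizes and not tests. Precision follows from the counts given for each gene.

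Members and lists were chosen with earlier results of these data known. Named genes were the 3 highest and 3 lowest ratios of complexes I, III, IV and V, all of complex II, the highest and lowest FPKM of each complex, the small lists by role, members at least 1.5-fold different, and the ends of each pathway list. Other named genes were chosen after their values were seen. Alternatives were DESeq2 1.42.0 size factors, upper-quartile and total scaling, FPKM ratios, other minimums, a pseudocount and reduced member sets. The values of 1 member of complex I are not reported here.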

Additional observations from a re-analysis of the deposited data

How the results depend on the processing

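No paired analysis was possible because each group has 1 library. No complex changed direction in its median under the scalings, minimums, pseudocount, FPKM ratios or reduced sets tried, nor in its summed ratio under the scalings and reduced sets, the alternatives run for sums. Some of these alternatives could not differ. FPKM ratios follow DESeq2 size factors and so repeat that scaling. A scaling shifts all genes alike and cannot change the gaps between complex medians. Complexes II and III had every member measured, so dropping the minimum could not alter them. Over all the alternatives, 23 values were flagged as moved and 137 were not. A value without the flag could still differ: the median of complex V was 0.16, and 0.25 without members that have a near-identical copy. Scaling moved the median of all genes by -0.03 (DESeq2 size factors), -0.05 (upper quartile) or 0.02 (total counts), and members with a ratio above 1 numbered 66, 66 and 72, against 69. Counts of members at least 1.2-fold higher moved most. A scaling shifts every log2 ratio by the same amount, and members such as Sdha (1.23-fold) and Sdhd (1.24-fold) lay close above 1.2. With DESeq2 size factors they were 1 in complex IV and 3 in complex V, and the same 1 and 3 with FPKM ratios. These were 7.7% and 17.6% of the measured genes of the complexes, below the 18.4% of all measured genes. With upper-quartile scaling they were 6, 0, 1 and 3 in complexes I, II, IV and V, and 13 overall in place of 26. That is 14.9% of members beside 17.2% of all genes, and in complexes I, II and IV too the share was below that of all genes. With subunits only and Ndufa4 in complex IV, complex I had 7 of 36, or 19.4%, below the 21.0% of all measured genes. Without members that overlap another gene, complexes I, II and V had 6, 1 and 3, and all members 15, from fewer genes, and the median of complex I was 0.10. Summed log2 ratios were 0.10 (complex I) and 0.20 (complex V) with DESeq2 size factors, and 0.080, 0.19, 0.11 and 0.18 (complexes I, III, IV and V) with upper-quartile scaling. Without overlapping members they were 0.088 (complex I) and 0.27 (complex V), and 0.27 for complex V without members that have a near-identical copy, an alternative chosen after seeing the data. Depth limits the scarce genes: at the 36 and 49 counts of Ndufaf2, a ratio of 1.43 had an interval that held 1.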

Other observations

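Genes of the ATP synthase and complex I that the name pattern leaves out were looked up after the values had been seen. Atpif1, the inhibitor of the ATP synthase, had a ratio of 1.21, Usmg5, a small subunit of its membrane part, one of 1.03, and Ndufb1-ps, annotated as a non-coding gene, one of 0.943 (0.850 to 1.05).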
